A study of Homo sapiens with 16 samples.

Results

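The total RNA (RNASeq) response to miR-137 was compared between U251 and U343 glioblastoma cells, to find which genes and functions moved in opposite directions or in only 1 of the lines. All 8 RNASeq libraries of the 16 in the series entered the comparison. It covered the genes listed for both lines, 20314 in all, of which 15550 had enough reads to be tested. U251 and U343 are established human glioblastoma lines. Cells of either line received a miR-137 mimic or the NC control mimic (a negative control) at 25 nM by reverse transfection and were collected after 48 hours, so every library, controls included, came from transfected cells. Each of the 4 groups had 2 libraries, and nothing in the labels says that they came from separate cultures, so p-values measure the spread between these libraries, which may be technical. The lines also differed in how libraries were made after removal of ribosomal RNA. The U251 libraries used random-hexamer priming with EpiScript and the U343 libraries a TotalScript kit, so cell line and library kit cannot be told apart. Where levels of the lines are set side by side below, this is a description, and they were not tested against each other.

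The U251 controls held 16886287 and 18224061 reads on the genes shared by both lines, and the U251 miR-137 libraries 10260834 and 10156675. The U343 libraries held between 37343855 and 44404345. In U251 depth thus differed with treatment, and only the U343 reads were thinned in a check of depth. The 12 astrocytic and glial markers looked at, among them GFAP, VIM and SOX2, were detected in all 8 libraries. Together they made up 13446 and 13823 CPM (reads scaled to library size) in U251 controls, 7858 and 7497 CPM in U251 after miR-137, and 14181 to 16165 CPM in the U343 libraries. Of the 13 markers of other cell types, 12 were listed for both lines. They summed to at most 2.87 CPM in U251 but to 963 to 1539 CPM in U343, mostly through the basal keratin KRT5, which stood at 1322 and 862 CPM in the U343 controls and at 1443 and 949 after miR-137. The libraries labelled U343 thus carried an epithelial keratin beside glial markers. Whether these cells are the line that the label names was not tested, nor was the part of this in the results, and U343 below means the libraries so labelled.

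MicroRNAs are short RNAs that load into Argonaute proteins and pair, mainly through the seed at their 5′ end, with sites in messenger RNAs, which are then less translated and less stable. miR-137 is enriched in brain, rises as neurons differentiate and is low in gliomas. In total RNA, transcripts that carry its sites and transcripts that change further downstream are read together, and these data do not separate them.

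The sequence of the mature miRNA is shown because every comparison starts from it. The capitals mark the seed, bases 2 to 8, whose complement in a target RNA reads AGCAAUA. In RefSeq's annotation of GRCh38.p14 the 23 bases lie on the minus strand of chromosome 1, from 98046091 to 98046113.
hsa-miR-137-3p: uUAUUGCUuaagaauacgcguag

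The effect of miR-137 was fitted in each line as a log2 fold change with edgeR, and the interaction was the U343 effect minus the U251 effect. A gene counted as changed at an adjusted p under 0.05. In U251, 3185 genes rose and 3335 fell, 41.9% of those tested, and in U343, 1844 rose and 2174 fell, 25.8%. The interaction was called for 3922 genes (25.2%), 1945 with a higher value in U343 and 1977 with a lower one. Across genes, which are not independent replicates, the effects in the lines had a Pearson r of 0.36. The median effect over all genes was 0.09 in U251 and 0.02 in U343 on the log2 scale.

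Genes with a called interaction were then sorted by their calls within each line. A gene was opposite if it passed the threshold in both lines with opposite signs, and a 1-line gene if it passed in just 1 of them. Opposite responses were few. There were 170 genes (1.09% of those tested) higher in U251 and lower in U343, and 242 (1.56%) lower in U251 and higher in U343. The 1-line classes were larger, with 1057 genes raised in U251 only (6.80%), 1122 lowered in U251 only (7.22%), 356 raised in U343 only (2.29%) and 459 lowered in U343 only (2.95%). A further 367 genes (2.36%) moved the same way in both lines but by unequal amounts. A missing call in the second line is weaker evidence than the interaction, because U343 had the deeper libraries and, as described next, the less alike replicates. The fit shared 1 estimate of spread per gene over both lines, so unlike U343 replicates could also cost a gene its call in U251.

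**Figure D1:**
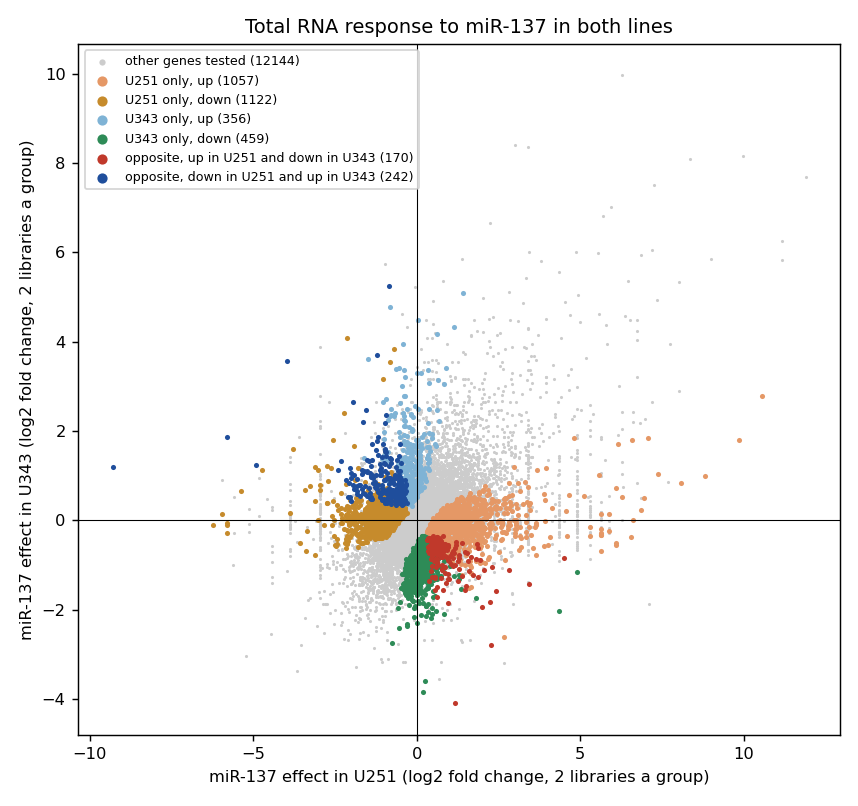
Each point is 1 of the 15550 genes tested, with its log2 fold change after miR-137 in U251 on the horizontal axis and in U343 on the vertical axis, and colours mark the classes. The 170 and 242 opposite genes lie in the lower right and upper left parts close to the centre, while the 1-line classes lie along the axes. The columns of points at a fixed U251 value are genes with few reads in that line.

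The 2 U343 miR-137 libraries were not alike. Between them 624 genes were over 2-fold higher in replicate 2 and 192 over 2-fold higher in replicate 1, and 125 genes were over 8-fold higher in replicate 2 against 1 gene the other way. In the other 3 groups no gene was over 8-fold higher in replicate 2 and between 0 and 6 were over 8-fold higher in replicate 1. Of the 125 genes, 42 were on a list of 58 interferon-stimulated genes. The 2 replicates are therefore given separately, as the log2 ratio of each to the mean of the U343 controls. Over all genes the ratios of the 2 replicates had a Pearson r of 0.62, where the U251 replicates had 0.84.

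**Figure D2:**
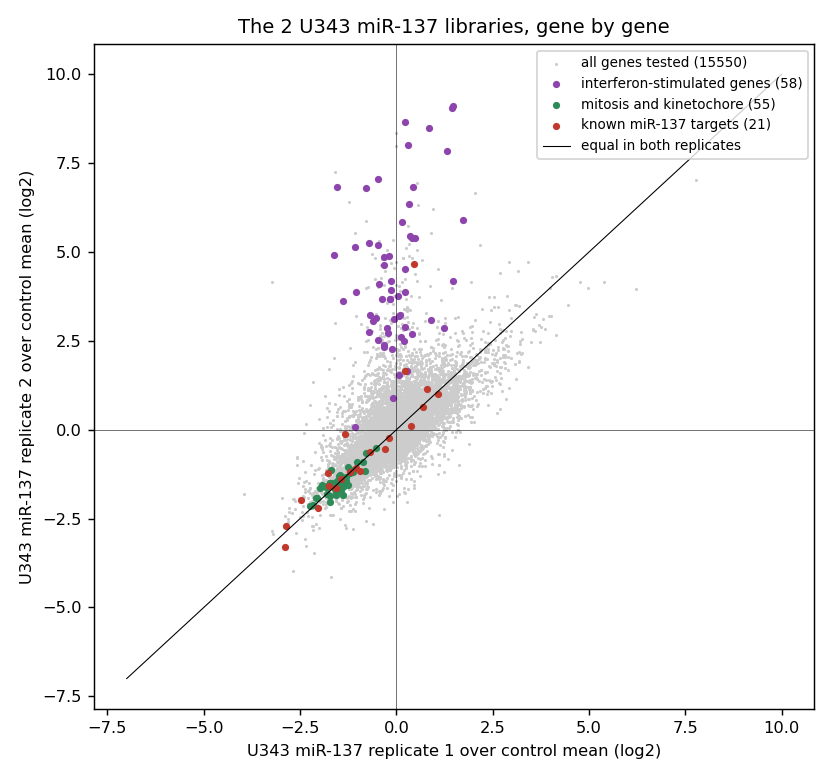
Each point is a gene, with the log2 ratio of U343 miR-137 replicate 1 to the control mean on the horizontal axis and that of replicate 2 on the vertical axis. The 55 mitosis genes lie on the line of equality, below 0 in both replicates, and the 58 interferon-stimulated genes lie mostly above it, at a median of -0.10 in replicate 1 and 3.88 in replicate 2.

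The interferon-stimulated genes encode the antiviral proteins that a cell makes after it senses foreign RNA or binds interferon. Of the 58, 46 rose in U251, where 20.5% of all genes did, and 30 rose in U343, where 11.9% did, with fitted medians of 4.23 and 2.95 on the log2 scale. The U343 value averages over replicates that disagreed. The median of the list was -0.10 in U343 replicate 1, with 31 of the 58 below the control mean, and 3.88 in replicate 2, with all 58 above it.

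ISG15, a ubiquitin-like antiviral protein, showed the pattern. It stood at 34.5 and 40.7 CPM in the U251 controls and at 3480 and 3188 after miR-137. In U343 the controls had 25.0 and 32.2 CPM, miR-137 replicate 1 had 35.8 and replicate 2 had 2298. Both U251 libraries and a single U343 library were raised about equally high. IFIT1, which binds foreign RNA ends, had 13.9, 14.0, 9.99 and 1853 CPM in the same 4 U343 libraries. The gene of interferon beta, IFNB1, had 1, 1, 1 and 817 reads there, and 1, 1, 5 and 7 reads in U251. These 3 genes were chosen after their values were seen.

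The count of line differences in this list follows the U343 library used. In each fit here and below that leaves out a library, its group keeps 1 library and takes its spread from the other groups. Counts from such fits rest on that library and are a description. With all libraries, 6 of the 58 genes had a called interaction, all lower in U343, and 5 of these were raised in U251 only, 8.62% against 6.80% of all genes. Without U343 miR-137 replicate 1, 57 of the 58 rose in U343 and 1 was raised in U251 only. Without replicate 2, 10 rose in U343, 14 fell, 34 were raised in U251 only, and 14 became opposite. In the separate RIPSeq libraries of U343 (RNA bound to PABP, the poly(A)-binding protein), both miR-137 replicates were high, with a median over the list of 8.80 and 8.78 log2 CPM against 4.12 in each control. The total RNA values were 4.22 and 4.11 in the controls, 4.11 in miR-137 replicate 1 and 8.76 in replicate 2. Replicate 1 of total RNA was thus the single U343 miR-137 library of the 4 at the control level.

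Some interferon-stimulated genes with a called interaction are given next. Of these, only MX1 stayed near or below its control level in both U343 replicates, and the others were higher in replicate 2. MX1, a GTPase that blocks viral replication (chromosome 21, 41714390 to 41753010 in hg18), stood at 10.5 and 9.47 CPM in U251 controls and at 934 and 939 after miR-137. In U343 the controls had 9.74 and 9.88 CPM and the miR-137 libraries 4.68 and 10.4. MX1 rose 93.8-fold in U251 (log2 6.55 ± 0.37 SE) and the U343 effect was -0.38 ± 0.30 (adjusted p = 0.40), so that replicate 2, with ISG15 and IFIT1 at U251 levels, had MX1 at its control level.

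GBP4, an interferon-induced GTPase, had 5 reads in each U251 control, too few for a fold change, and 43.1 and 34.4 CPM after miR-137, against 6.69 and 6.95 CPM in the U343 controls and 6.41 and 12.8 after miR-137. BST2, which tethers budding virus to the membrane, went from 23.7 and 22.7 CPM to 255 and 346 in U251. It went from 127 and 140 to 163 and 424 in U343, higher in both replicates but by much more in replicate 2. LY6E and XAF1, also interferon-induced, had between 0.12 and 0.31 CPM in the U251 controls and 250 to 290 after miR-137. The reads in these controls were too few for a fold change. In U343 both genes were already read at 8.94 to 30.1 CPM in the controls, were at 31.4 (LY6E) and 8.87 CPM (XAF1) in replicate 1, and at 162 and 129 CPM in replicate 2.

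Promoter stretches of these genes are shown because the list shares a known element, the interferon-stimulated response element, searched here on both strands as GAAA, any 2 bases and GAAA again. RefSeq promoter windows of GRCh38.p14, 250 bases before to 50 bases after a start site, were found for 48 of the 58 genes, and 37 of their 62 windows (59.68%) held it, against 3.57% of all 35116 windows. Capitals mark the match, and each stretch is written on the strand of its gene, at chr21:41420559-41420588, chr1:89198927-89198956 and chr19:17405735-17405764. The genes shown were picked by interaction p from called genes that held the element, so each holds it by choice. With all libraries MX1, GBP4 and BST2 did not pass the edgeR test in U343, and BST2 was the nearest to it (adjusted p = 0.056).
MX1: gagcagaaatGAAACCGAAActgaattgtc
GBP4: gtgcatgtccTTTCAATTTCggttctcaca
BST2: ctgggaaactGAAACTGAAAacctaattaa

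Genes that load peptides on MHC class I, which interferons also raise, rose in U251 and split between the U343 replicates. Of the 21 genes listed, 10 were in the tables of both lines, and of these 8 rose in U251 (80%, against 20.5% of all genes) and none in U343 by edgeR, with 1 rising in U343 at an unadjusted p under 0.05, 1 by DESeq2 and 0 by voom. The list's median was 1.74 in U251, -0.39 in U343 replicate 1 and 0.47 in replicate 2. Its median level after miR-137 was 7.24 and 7.06 log2 CPM in U251 (controls 5.54 and 5.66), and 6.17 in U343 replicate 1 and 7.27 in replicate 2 (controls 6.47 and 6.49), so that replicate 2 ended level with U251 from a higher start. In RIPSeq the list's median change was 1.41 in U251 and 0.89 in U343. PSME1, a proteasome activator subunit, went from 57.7 and 59.3 CPM to 252 and 310 in U251 and from 135 and 147 to 103 and 174 in U343. The U343 replicates lay on either side of their controls. TAPBPL, a peptide editor, rose by 3.17 ± 0.35 in U251, with an effect of -0.34 ± 0.22 in U343. Without replicate 1, 5 of the 10 rose in U343, and without replicate 2, 3 of them fell.

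Mitosis genes moved far more in U343 than in U251. Every one of the 55 mitosis and kinetochore genes, which build the spindle and separate the chromosomes, fell in U343, where 14.0% of all genes fell, and 27 of them (49.1%) fell in U251, against 21.4%. The interaction was called, lower in U343, for 52 of the 55 (94.5%, against 12.7% of all genes). The median effect was -0.32 in U251 and -1.48 in U343, and here the U343 replicates agreed at -1.47 and -1.50. By class, 26 genes were lowered in U343 only (47.3% of the list, against 2.95% of all genes) and 25 fell in both lines but further in U343.

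KIF11, the motor that pushes spindle poles apart (chromosome 10, 94342805 to 94405130 in hg18), was level in U251, with 280 and 296 CPM in controls and 291 and 287 after miR-137. In U343 it went from 96.0 and 93.4 CPM to 27.9 and 31.7. The U251 groups overlapped and the U343 groups lay far apart, with an effect of 0.01 ± 0.12 in U251 and -1.67 ± 0.12 in U343 (interaction adjusted p = 0.000919, edgeR). KIF2C, which removes tubulin from microtubule ends, went from 214 and 217 to 195 and 205 CPM in U251 and from 153 and 164 to 45.3 and 45.1 in U343. AURKA, the spindle-pole kinase, fell in both lines, by 0.42 on the log2 scale in U251 and by 2.20 in U343. ESPL1, the separase that cuts cohesin, and C15orf42, a factor of replication initiation, were among the 4 genes with the largest interaction in the class lowered in U343 only, under the same read minimum as the other named genes.
INCENP, the scaffold of the chromosomal passenger complex, was the single opposite gene of the list, named after its values were seen. It had 59.1 and 52.0 CPM in U251 controls, 81.0 and 68.7 after miR-137, and in U343 129 and 128 in controls and 58.3 and 58.0 after miR-137.

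The mitosis counts varied little with the library left out. The interaction was called for 52 genes without either U343 miR-137 replicate and for at least 40 without any other library. The U251 side is less certain. With library totals as the only scaling, 8 of the 55 fell in U251 in place of 27, while all 55 still fell in U343. In RIPSeq the list's median change was -0.39 in U251 and -1.49 in U343.

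Many of these genes carry a cell cycle homology region (CHR), searched as TTTGAA on both strands, and it is shown beside the gene start because it marks many genes that are switched off together when cells leave the cycle. Windows were found for 47 of the 55 genes, and 36 of 58 windows (62.07%) held TTTGAA, against 15.16% of all windows, while CCAAT was found in 75.86% against 34.61%. Of the lists described next, TTTGAA was in 2.17% of the DNA replication windows and in 40.38% of the histone windows. Whether the element has a part in the fall was not tested. Capitals mark the CHR letters, and the stretches lie at chr10:92593090-92593119, chr1:37692481-37692510 and chr16:23678848-23678877 in GRCh38.p14. Genes were picked in the same way, from called genes with the letters.
KIF11: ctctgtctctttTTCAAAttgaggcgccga
CDCA8: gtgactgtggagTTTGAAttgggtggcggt
PLK1: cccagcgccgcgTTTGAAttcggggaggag

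DNA replication genes moved with them, with less difference between the lines. All 44 fell in U343 and 31 (70.5%, against 21.4% of all genes) fell in U251, with medians of -0.76 in U251, -1.54 in U343 replicate 1 and -1.20 in replicate 2. The interaction was lower in U343 for 24 genes (54.5%, against 12.7%), and 12 were lowered in U343 only (27.3%, against 2.95%). The polymerase subunit genes POLD1 and POLD3 had effects of 0.08 ± 0.13 and 0.09 ± 0.13 in U251 and fell by 1.12 and 1.04 in U343. RFC4, of the clamp loader, fell in both, by 0.38 and 1.55. Replication-dependent histone genes fell in both lines, 51 of 59 in U251 (86.4%, against 21.4%) and 50 in U343 (84.7%, against 14.0%), with a called interaction for 1 higher and 3 lower in U343 (1.69% and 5.08%, against 12.5% and 12.7%). Those RNAs lack a poly(A) tail and were read here after ribosomal depletion.

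Cytosolic ribosomal protein genes showed the reverse, a fall in U251 and little change in U343. Of 80 genes, 64 fell in U251 (80%, against 21.4% of all genes) and 7 in U343 (8.75%, against 14.0%), with medians of -0.92 and -0.10, and of -0.04 and -0.15 in the U343 replicates. The interaction was higher in U343 for 50 (62.5%, against 12.5% of all genes), and 49 genes were lowered in U251 only (61.2%, against 7.22%). RPS6, of the small subunit (chromosome 9, 19366254 to 19370235 in hg18), had 2008 and 2584 CPM in U251 controls and 759 and 832 after miR-137. In U343 it had 922 and 1001 CPM in controls and 935 and 829 after miR-137. The U251 groups were well apart and the U343 groups overlapped, with effects of -1.53 ± 0.15 and -0.12 ± 0.14. RPL15, of the large subunit, fell in both lines, by 1.82 in U251 and 0.67 in U343.

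These counts depend on single libraries. The number of ribosomal protein genes with a higher value in U343 was 23 without U251 control replicate 2, 25 without U251 miR-137 replicate 1, 21 without U343 control replicate 1 and 23 without U343 control replicate 2, and 24 with library totals as the only scaling, in place of 50. The U251 median stayed below 0 in each, at -0.66 with library totals. In RIPSeq the list's fitted median was -0.40 in U251 and -0.46 in U343, without the gap between the lines. The U251 RIPSeq controls were unlike, however, with list medians of 8.39 and 7.88 log2 CPM, against 7.44 and 7.50 after miR-137. The size of the U251 fall in RIPSeq thus depends on the control library. The difference between the assays was not tested. Ribosomal protein genes have many processed copies, with 1989 pseudogenes of RPL and RPS symbols annotated in GRCh38.p14, and reads shared with them make single counts uncertain.

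Ribosomal protein messages start with a run of pyrimidines, by which their translation follows the state of growth signalling. The letters CTTT were searched within 10 bases of the start site on the transcribed strand, and 42 of 80 windows of 65 matched genes (52.5%) held them, against 9.07% of all windows. Capitals mark the letters at chr9:19380218-19380247, chr11:8682779-8682808 and chr11:75399511-75399540 in GRCh38.p14. Here too, only called genes that held the letters could be picked.
RPS6: ggaagttggccctCTTTtccgtggcgcctc
RPL27A: ggcgaaggccttcCTTTttcgtctgggctg
RPS3: gccacttcctttcCTTTcagcggagcgcgg

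**Figure D3:**
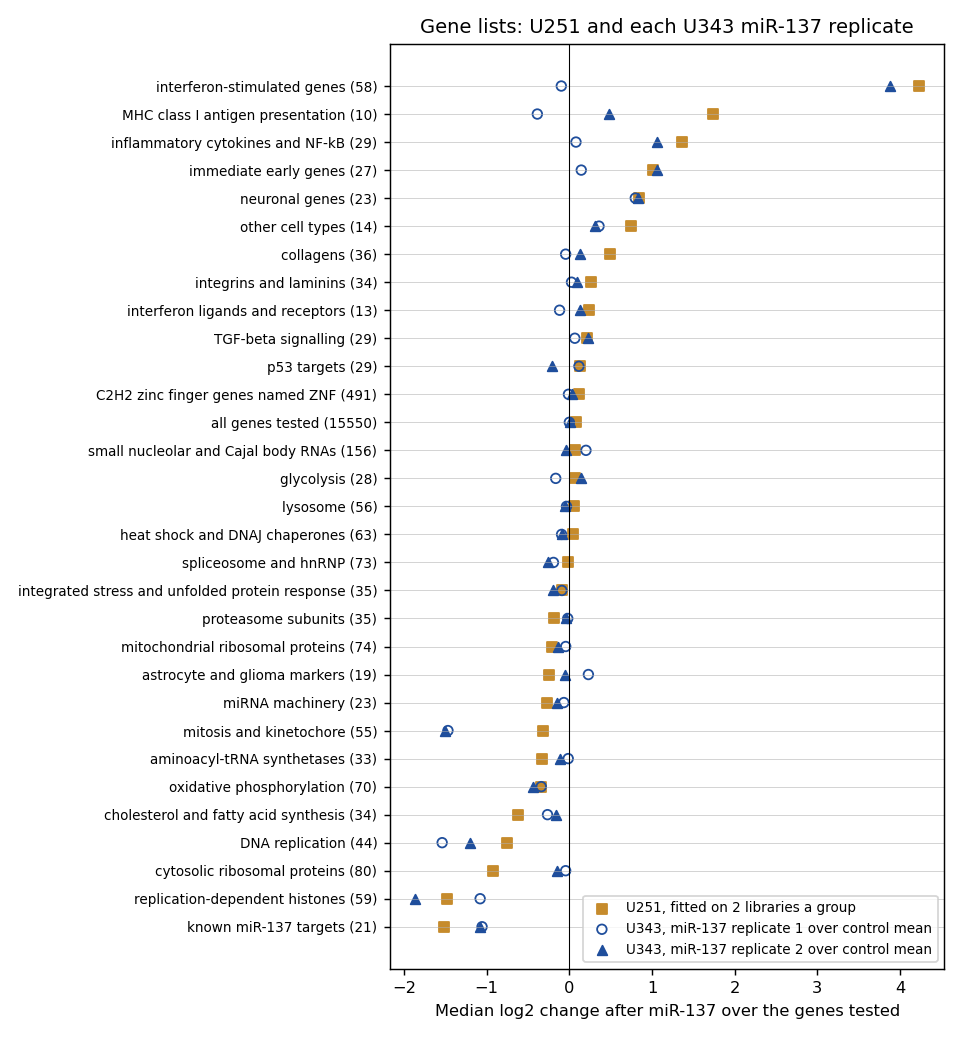
The horizontal axis is the median log2 change after miR-137 over the tested genes of each list (number in brackets), for U251 and for each U343 miR-137 replicate over the control mean. Mitosis genes sit at -0.32 in U251 and near -1.5 in both U343 replicates, ribosomal protein genes at -0.92 in U251 and near 0 in U343, and interferon-stimulated genes at 4.23, -0.10 and 3.88.

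Cholesterol and fatty acid synthesis genes fell in both lines, more of them in U251. Of 34 genes, 21 fell in U251 (61.8%, against 21.4% of all genes) and 12 in U343 (35.3%, against 14.0%), and 10 were lowered in U251 only (29.4%, against 7.22%), with medians of -0.62 in U251 and -0.26 and -0.16 in the U343 replicates. In RIPSeq the medians were -0.39 in U251 and -0.40 in U343, so the PABP-bound RNA did not show the gap. SCD, the stearoyl-CoA desaturase, went from 463 and 479 CPM to 128 and 103 in U251, and from 1254 and 1726 to 1258 and 1903 in U343. The U251 groups were apart and the U343 groups overlapped. SCD fell by 2.03 ± 0.23 in U251 with an effect of 0.09 ± 0.22 in U343, and INSIG1, which holds back the sterol sensor, fell by 1.37 with 0.42 ± 0.14 in U343 (adjusted p = 0.063).

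RNA-splicing genes moved in both directions in U251. Of 73 spliceosome and hnRNP genes, 18 rose and 20 fell in U251 (24.7% and 27.4%, against 20.5% and 21.4% of all genes), and none rose and 14 fell (19.2%, against 14.0%) in U343, by edgeR. The shares other than the 0 were near those of all genes. At an unadjusted p under 0.05, 1 rose in U343, and DESeq2 and voom called 0. The interaction was lower in U343 for 16 (21.9%, against 12.7%) and higher for none by edgeR, against 2 higher at an unadjusted p under 0.05, 1 by DESeq2 and 0 by voom, and 11 genes were raised in U251 only (15.1%, against 6.80%). SNRPC, of the U1 particle, went from 14.5 and 17.1 CPM to 59.3 and 73.4 in U251 and from 52.5 and 58.0 to 63.5 and 62.2 in U343. HNRNPR rose by 0.90 ± 0.11 in U251, and its effect in U343 was -0.26 ± 0.11.

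The 170 genes raised in U251 and lowered in U343 changed by a smaller effect (the lesser of both lines, unsigned) of 0.32 to 2.29 on the log2 scale, with a median of 0.61, and 19 of them changed over 2-fold in both lines. Both U343 replicates lay below the control mean for all 170, with medians of -0.70 and -0.69. These libraries also chose the class, so this is a description.

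ITGB8, the integrin β8 chain, which binds latent TGF-β on astrocytes, lies at 20337250 to 20421907 on chromosome 7 in hg18. It had 199 and 195 CPM in U251 controls and 610 and 519 after miR-137. In U343 it had 870 and 888 CPM in controls and 317 and 313 after miR-137. In CPM the lines thus traded places, at a log2 effect of 1.52 ± 0.12 in U251 and -1.48 ± 0.12 in U343 (interaction adjusted p = 0.000175, edgeR).

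DNAH11, a dynein heavy chain of cilia (chromosome 7, 21549358 to 21907982), went from 17.6 and 18.3 CPM to 86.8 and 56.3 in U251 and from 76.7 and 68.8 to 20.3 and 17.7 in U343. It overlaps CDCA7L on the other strand by 940 bases, so some reads may belong to that gene. ADAMTS15, a secreted protease of the proteoglycan matrix, went from 13.1 and 11.3 CPM to 49.7 and 39.8 in U251 and from 40.6 and 54.8 to 21.1 and 18.6 in U343. In both genes the groups of each line were apart, which the rule for naming opposite genes required.

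TBX2, a T-box repressor, had 2.45 and 2.19 CPM in U251 controls and 7.98 and 7.26 after miR-137, and in U343 16.2 and 19.8 in controls and 7.21 and 8.09 after miR-137, so that both lines ended close together. STARD8, a GTPase-activating protein, started level, at 7.22 and 7.65 CPM in U251 and 6.85 and 5.70 in U343, and moved apart to 22.0 and 22.8 in U251 and 3.00 and 2.70 in U343. EPOR, the erythropoietin receptor, went from 2.32 and 1.94 CPM to 8.25 and 9.44 in U251 and from 9.25 and 10.6 to 5.92 and 3.21 in U343, where the replicates were unequal but both below the controls. EVI2A, which lies inside NF1 on the other strand, had 94, 70, 121 and 155 reads in U251 and 135, 132, 51 and 55 in U343. AURKAPS1, a pseudogene of the kinase AURKA that lies inside RAB3GAP2 on the same strand, had 20 to 74 reads a library, and reads of both parents may be counted on it.

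The 242 genes lowered in U251 and raised in U343 had a smaller effect of 0.28 to 3.58, with a median of 0.59, and 38 changed over 2-fold in both lines. Both U343 replicates lay above the control mean for all 242, with medians of 0.73 and 0.64. These libraries chose this class as well, so this too is a description. Over all genes tested, the U343 replicates had the same sign for 11831 of 15550.

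PEG10, an imprinted gene derived from a retrotransposon (chromosome 7, 94123573 to 94136942 in hg18), had the highest counts of the 8 genes named in this direction. It had 1536 and 1852 CPM in U251 controls and 477 and 401 after miR-137. In U343 it had 226 and 227 CPM in controls, and 1671 and 1158 after miR-137. In CPM, U343 after miR-137 stood near where U251 had started, at log2 effects of -1.95 ± 0.19 and 2.65 ± 0.20 (interaction adjusted p = 0.000222, edgeR).

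CPA4, a carboxypeptidase (chromosome 7, 129720210 to 129751255), went from 321 and 324 CPM to 107 and 98.7 in U251 and from 37.2 and 25.0 to 149 and 138 in U343. MID1, a ubiquitin ligase on microtubules (chromosome X, 10373596 to 10761730), went from 1067 and 1106 CPM to 475 and 367 in U251 and from 121 and 113 to 377 and 391 in U343. In CPM both genes started far higher in U251 and came close together. FHDC1, a formin, fell by 2.32 ± 0.18 in U251 and rose by 1.33 ± 0.17 in U343, and PLXDC2, a membrane protein of vessels, fell by 1.37 ± 0.31 and rose by 1.34 ± 0.28.

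PRSS35, a secreted protease-like protein, had the same level in the controls of both lines, 36.5 and 39.6 CPM in U251 and 49.6 and 26.3 in U343, and parted to 13.8 and 12.2 in U251 and 244 and 179 in U343. PHLDB2, which anchors microtubules at focal adhesions, fell by 1.51 ± 0.18 in U251 and rose by 1.34 ± 0.18 in U343, and overlaps PLCXD2 on the same strand. EDN2, a vasoconstrictor peptide, had few reads: 46 and 69 in U251 controls, 5 and 0 after miR-137 (a count of 0 allows up to 3), 12 and 11 in U343 controls, and 188 and 93 after miR-137. Its groups were apart in both lines, as the naming rule required, and no fold is given for the U251 fall.

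**Figure D4:**
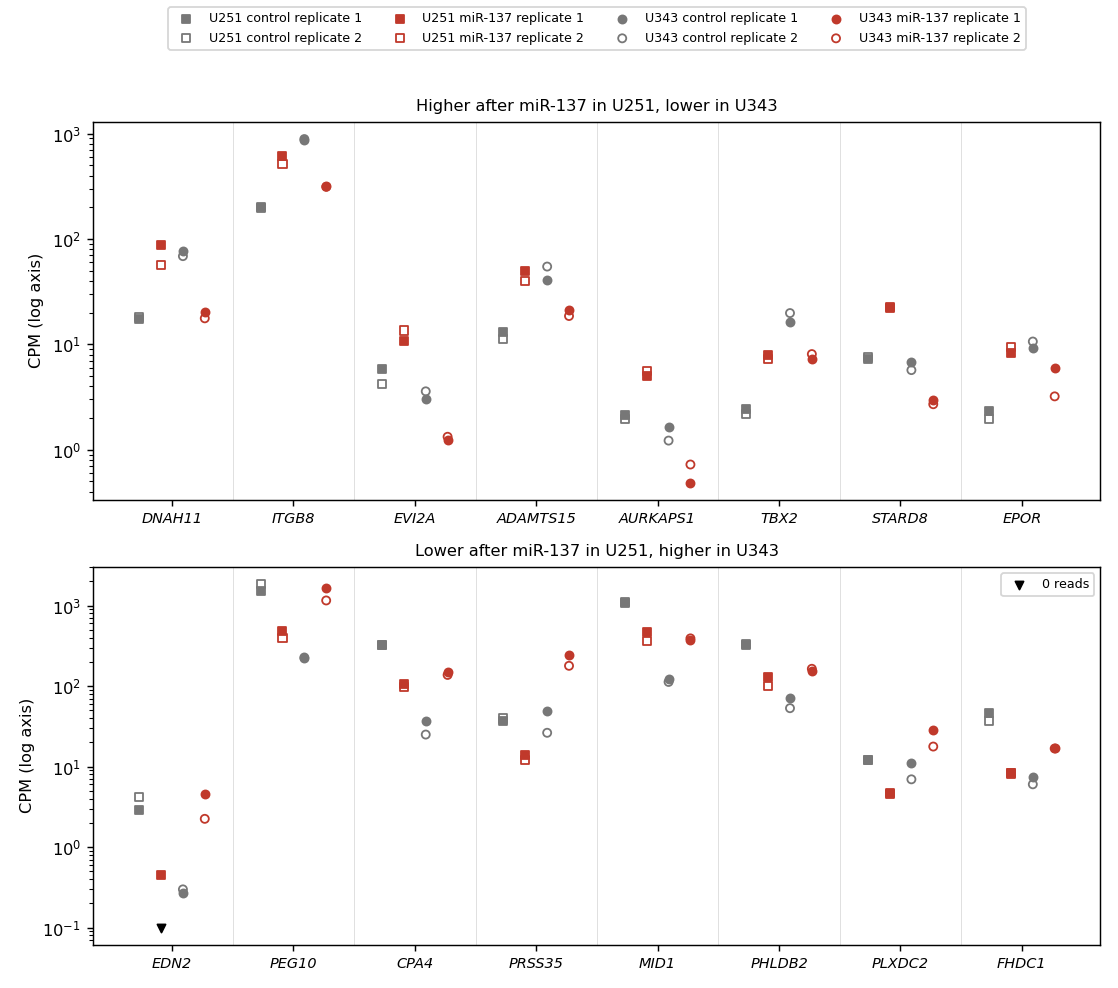
Points are the 8 libraries of each of the 16 named opposite genes, as CPM on a log axis, squares for U251 and circles for U343, grey for control and red for miR-137, filled for replicate 1 and open for replicate 2. In each gene the red squares and the red circles lie on opposite sides of the grey ones of the same line. Both U343 miR-137 replicates lie on the same side. The rule for naming these genes required both.

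Where the lines stood before transfection differed between the classes. Of the 170 genes raised in U251 and lowered in U343, 126 (74.1%) were higher in U343 than in U251 controls, and 48 (28.2%) were higher in U343 after miR-137. Of the 242 genes that moved the other way, 76 (31.4%) were higher in U343 controls and 171 (70.7%) in U343 after miR-137. Over all genes tested these shares were 52.2% and 51.3%. The gap between the lines became smaller for 55.3% and 50.8% of the genes of these classes and for 50% of all genes. The direction of the shift in order is fixed by how the classes were chosen. How many single genes exchanged their order was not counted, and the levels of the lines come from different library kits. The control libraries enter both the levels and the effects, so these shares are a description.

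By function, opposite genes were scattered. Of the 412, 34 (8.25%) were on any of the 31 lists, which held 11.2% of all genes tested, and 18 lists had no opposite gene. The lists with the largest shares held 2 or 3 such genes each, against 2.65% of all genes: astrocyte and glioma markers 2 of 19 (10.5%), known miR-137 targets 2 of 21 (9.52%), aminoacyl-tRNA synthetases 3 of 33 (9.09%) and stress-response genes 3 of 35 (8.57%). Counts this small do not set a list apart from the rest.

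Among them were glial markers. NES, the intermediate filament nestin of neural progenitors (chromosome 1, 154905180 to 154913813 in hg18), had 401 and 399 CPM in U251 controls and 153 and 184 after miR-137. In U343 it had 132 and 141 CPM in controls and 436 and 376 after miR-137. In CPM it fell in U251 to near where U343 began and rose in U343 to near where U251 began, across different library kits. CD44, the hyaluronan receptor, fell by 0.79 in U251 and rose by 0.60 in U343. Of the 22 glial markers listed, 19 were tested. In U251, 7 fell and 4 rose (36.8% and 21.1%, against 21.4% and 20.5% of all genes), and in U343, 2 fell and 4 rose (10.5% and 21.1%, against 14.0% and 11.9%). GFAP, the astrocyte filament, fell in both lines, by 3.17 ± 0.14 from 30.7 and 32.6 CPM in U251, and by 0.42 ± 0.11 from 4622 and 4845 CPM in U343. FABP7, a fatty acid carrier of radial glia, fell by 2.56 in U251, with an effect of 0.44 ± 0.21 in U343.

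Stress-response genes moved in both directions. DDIT4, which restrains mTOR, went from 16.0 and 13.1 CPM to 32.9 and 37.5 in U251 and from 37.1 and 37.3 to 20.3 and 19.4 in U343. VLDLR, a lipoprotein receptor that ATF4 can induce, and SLC7A11, the cystine transporter, went the other way, with effects of -1.27 and -1.23 in U251 and 0.75 and 1.02 in U343. Of the 35 genes, 6 were raised in U251 only (17.1%, against 6.80% of all genes) and 5 lowered in U251 only (14.3%, against 7.22%). SESN2, a stress-induced regulator of mTOR, went from 16.8 and 16.1 CPM to 48.2 and 46.7 in U251 and from 42.5 and 39.9 to 44.1 and 33.5 in U343.

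Matrix and adhesion genes were taken as collagens and as integrins with laminins. Of 36 collagen genes 14 rose in U251 (38.9%, against 20.5% of all genes) and 8 in U343 (22.2%, against 11.9%), and 8 were raised in U251 only (22.2%, against 6.80%). The collagen median was 0.50 in U251 and 0.20 in U343, with a median interaction of 0.01. In RIPSeq the collagen medians were -0.50 in U251 and 0.09 in U343, so the U251 rise was not seen there. COL7A1, of anchoring fibrils, went from 60.2 and 36.9 CPM to 155 and 156 in U251 and from 6.29 and 7.39 to 4.82 and 5.48 in U343. COL6A3 rose by 1.70 ± 0.23 in U251, with -0.28 ± 0.21 in U343. ITGA5, of the fibronectin receptor, was opposite, rising by 1.56 ± 0.21 in U251 and falling by 0.90 ± 0.21 in U343, and the laminin-binding ITGB4 fell by 1.91 in U251 only. The list of integrins and laminins had 9 of 34 genes raised in U251 (26.5%) and 3 in U343 (8.82%), shares near those of all genes.

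Signalling genes of the TGF-β and NF-κB lists gave single differences. TGFB3, a ligand, went from 39.9 and 43.5 CPM to 12.9 and 11.8 in U251 and from 11.2 and 12.6 to 19.4 and 21.4 in U343. It shares 23651 bases with BCYRN1 on the same strand. ID3, an inhibitor of differentiation, fell by 1.39 in U343, with 0.32 ± 0.13 in U251.

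TNFAIP2, an inflammatory target of NF-κB, was opposite, at 494 and 494 CPM in U251 controls, 260 and 248 after miR-137, and in U343 36.9 and 37.7 in controls and 78.4 and 82.5 after miR-137. IL11 rose in both lines, by 1.86 in U251 and 4.23 in U343, and NFKB2, a subunit of the factor itself, rose by 1.57 in U251, with -0.04 ± 0.13 in U343. The inflammatory list as a whole had 13 of 29 genes raised in U251 (44.8%, against 20.5%) and 7 in U343 (24.1%, against 11.9%), and its U343 median was 0.08 in replicate 1 and 1.06 in replicate 2. Immediate early genes had the same split, 0.14 and 1.07. In RIPSeq the inflammatory medians were 0.05 in U251 and 1.86 in U343, the reverse order of the fitted 1.37 and 0.87 in total RNA. Those of immediate early genes were 0.39 and 0.89 in RIPSeq, against 1.01 and 0.59 in total RNA. These differences between the assays were not tested.

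Neuronal genes, of interest since miR-137 promotes neuronal differentiation, had like medians in both lines, 0.84 in U251 and 0.91 in U343, with a median interaction of 0.05. Of 23 genes tested, 9 rose in U343 (39.1%, against 11.9% of all genes) and 6 in U251 (26.1%, against 20.5%), and 5 were raised in U343 only (21.7%, against 2.29%). GAP43, a growth cone protein, had 11.4, 13.1, 9.87 and 9.44 CPM in U251, and in U343 3.23 and 3.31 in controls and 21.4 and 23.5 after miR-137. L1CAM, a neural adhesion molecule, had 5.03 and 2.67 CPM in U251 controls and 2.87 and 2.45 after miR-137, and in U343 1.34 and 1.22 and then 15.6 and 11.8. Both replicates of U343 were raised for each gene. In RIPSeq the list's median was 0.28 in U251 and 1.04 in U343. GAP43, however, had a RIPSeq effect of 2.01 in U251 and 2.13 in U343. NEFL, the neurofilament light chain, fell by 2.62 in U251, while U343 libraries held only 4 to 12 reads of it.

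Genes known as miR-137 targets, named so earlier or in the study on these samples and thus no independent evidence of a direction, mostly fell in both lines. Of 21, 20 fell in U251 (95.2%, against 21.4% of all genes) and 12 in U343 (57.1%, against 14.0%). In U343, 3 rose (14.3%, against 11.9%), among them the opposite genes MSI1 and CD24. The medians were -1.52 in U251 and -1.06 and -1.08 in the U343 replicates. The interaction was higher in U343 for 10 (47.6%, against 12.5%) and lower for 3 (14.3%, against 12.7%). CDK6, which drives cells out of G1 (chromosome 7, 92072173 to 92303877 in hg18), had 1515 and 1592 CPM in U251 controls and 148 and 121 after miR-137. In U343 it had 561 and 662 CPM in controls, and 83.4 and 93.8 after miR-137. It fell in both lines, by 3.53 ± 0.16 and 2.79 ± 0.15, with an interaction adjusted p of 0.031.

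The GTPase CDC42, the ubiquitin ligase MIB1 and the ligand TGFB2 fell further in U251 too, with effects of -2.55, -1.81 and -2.08 in U251 and of -1.61, -0.66 and -1.04 in U343. The kinase AKT2 and the RNA-binding protein YBX1 fell in both lines with no called difference, at interaction values of 0.66 ± 0.26 and -0.46 ± 0.26. MITF, a pigment-cell factor, fell further in U343, by 3.11 against 0.87. KIT, a receptor kinase, fell in U251 from 8.10 and 6.50 CPM to 0.63 and 0.44 and had 1 to 8 reads in U343, too few for a direction. MSI1, an RNA-binding protein of neural stem cells, was opposite, at 5.40 and 4.92 CPM in U251 controls, 2.06 and 3.67 after miR-137, and in U343 18.0 and 15.7 in controls and 27.0 and 26.2 after miR-137. The second opposite gene of the list, CD24, has near-identical copies and is not described.

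**Figure D5:**
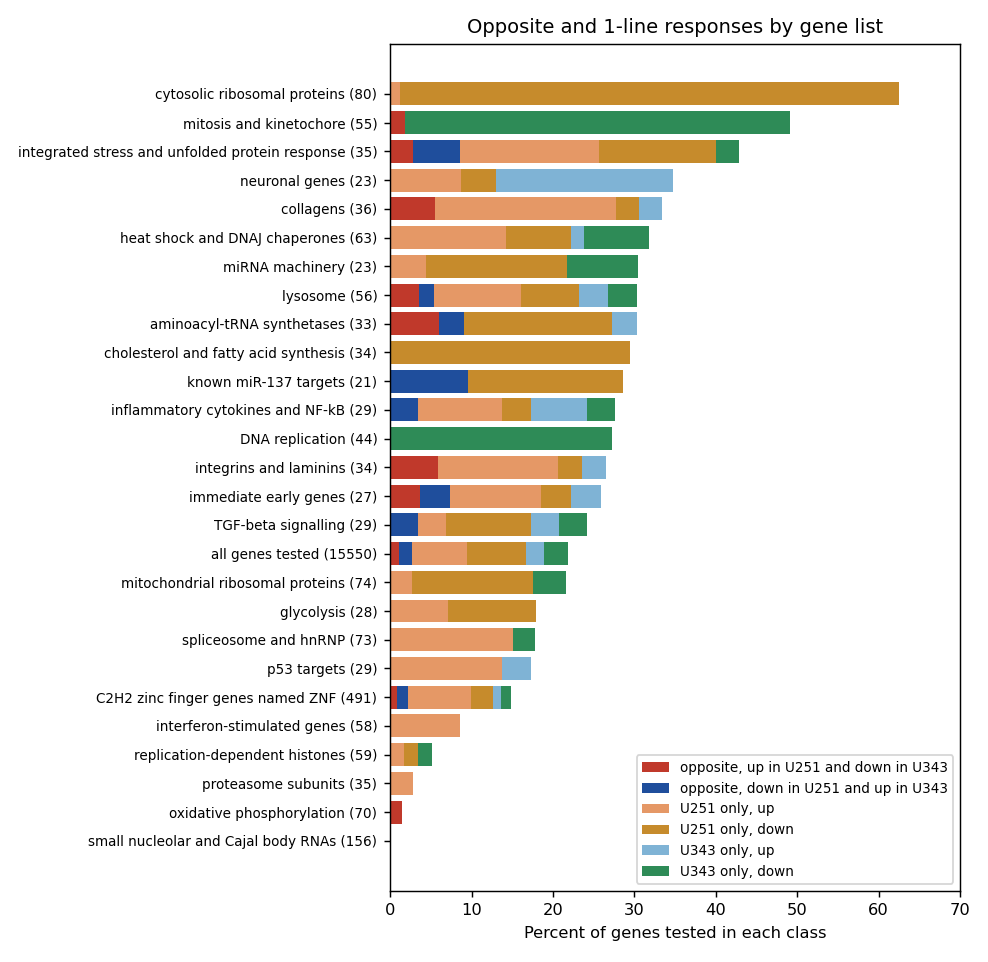
Bars give the percent of the tested genes of each list (number in brackets) in the opposite and 1-line classes, with all genes tested for comparison, for lists of 20 genes or more. Ribosomal protein genes reach furthest, through genes lowered in U251 only (61.2%), and mitosis genes next, through genes lowered in U343 only (47.3%). Opposite genes reach at most 9.52% of the genes of a plotted list, in the known miR-137 targets.

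The 4 genes lowered in U251 only that had the largest interaction, of those with a mean of at least 50 reads in each line and 1 direction in all pairs, are given next. STXBP6, a binder of SNARE proteins, went from 13.0 and 13.1 CPM to 0.90 and 0.87 in U251 and from 12.3 and 11.8 to 16.5 and 10.3 in U343. CADM1, a cell adhesion molecule, had 336 and 366 CPM in U251 controls, 52.7 and 51.7 after miR-137, and in U343 178 and 214 in controls and 244 and 269 after miR-137. The neurotrophin receptor NTRK3 fell by 2.74 ± 0.19 in U251, with 0.39 ± 0.17 in U343. WNT5A, a non-canonical Wnt ligand, fell by 3.36 ± 0.31 in U251, while its U343 miR-137 replicates, at 140 and 73.8 CPM, lay within or below controls of 149 and 104.

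In U343, the genes raised alone included HMOX1, the heme oxygenase of the oxidative stress response, at 21.7 and 28.1 CPM in controls and 220 and 549 after miR-137. In U251 it was at 125 and 140 CPM and then 98.3 and 103. The keratin KRT75 went from 1.67 and 0.90 CPM to 13.5 and 33.4 in U343, and the cytokine IL6 from 7 reads in each control to 64 and 227. For all 3 both replicates were raised, replicate 2 by more than replicate 1. In U251 IL6 went from 2.89 and 3.34 CPM to 7.27 and 6.38, an effect of 1.13 ± 0.51 (adjusted p = 0.11, edgeR), and the study's rule of 2-fold in all 4 pairs, applied here, counts it as raised in both lines. FAM196B, inside DOCK2 on the other strand, went from 13 and 10 reads to 118 and 72. Of the genes lowered in U343 alone, the sialyltransferase ST3GAL6 fell by 2.20 ± 0.26 and CCDC150 by 2.14 ± 0.20, with effects of 0.43 ± 0.23 and 0.28 ± 0.20 in U251.

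Some of the remaining lists are given by their counts. Glycolysis, p53 targets, proteasome subunits, lysosome, metallothioneins and miRNA machinery are not described in the text. Of 33 aminoacyl-tRNA synthetases, 17 fell in U251 (51.5%, against 21.4% of all genes) and 6 in U343 (18.2%, against 14.0%). Lowered in U251 only were 6 of the 33 (18.2%, against 7.22%). The U343 effect was higher for 8 and lower for 3 (24.2% and 9.09%, against 12.5% and 12.7%). Oxidative phosphorylation had 29 of 70 genes lowered in U251 (41.4%, against 21.4%) and 26 in U343 (37.1%, against 14.0%), with 2 called interactions, 1 of them the opposite NDUFA6 at 1.10 and -0.69. Mitochondrial ribosomal proteins had 11 of 74 lowered in U251 only (14.9%, against 7.22%). Of 63 heat shock and DNAJ chaperones, 16 had a lower and 6 a higher effect in U343 (25.4% and 9.52%, against 12.7% and 12.5%), and 9 were raised in U251 only (14.3%, against 6.80%). Of 491 zinc finger genes 38 were raised in U251 only (7.74%). Small nucleolar RNAs (156 tested), interferon ligands and receptors (13) and markers of other cell types (14) had no called interaction in edgeR. At an unadjusted p under 0.05 there were 9, 1 and 2, while DESeq2 called 1, 2 and 0 and voom 0 in each list.

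The RIPSeq libraries, which the classes were not made from, gave a second reading of the same transfection comparison. Of the 170 genes raised in U251 and lowered in U343, 87 (51.2%) had the same signs in both lines in RIPSeq, and of the 242 in the other direction 140 (57.9%) did. In the 1-line classes this share was 42.6% (raised) and 49.6% (lowered) for U251 only, and 50% and 48.6% for U343 only. It was not counted over all genes, so these sign counts alone do not set the opposite genes apart. The RIPSeq interaction of the 170 and the 242 genes passed the threshold with the same sign for 12 (7.06%, against 1.22% of all genes) and 42 (17.4%, against 2.06%), where 3.28% of all genes were called in either direction. With the other sign it passed for none of either class in edgeR, and for 3 and 2 at an unadjusted p under 0.05. The U343 side held more often, with 159 of 170 and 228 of 242 genes of the same sign, than the U251 side, with 91 and 148. The U343 sign held as often in the classes called in U343 only, for 437 of 459 lowered and 345 of 354 raised genes. The U251 RIPSeq controls were not alike, and without control replicate 1 the counts of opposite genes with both signs were 96 and 171, and without replicate 2 they were 84 and 88. The calls moved far more. Without control replicate 1, 103 and 175 genes passed with the same sign (60.6%, against 14.9% of all genes, and 72.3%, against 18.8%) and 3 and 3 with the other sign. Without control replicate 2, 88 and 105 passed with the same sign (51.8% against 26.9%, and 43.4% against 26%) and 28 and 50 with the other. Of the 16 named opposite genes, 14 kept both signs, and 8 passed the RIPSeq interaction test, among them ITGB8 at 1.87 and -1.87 and FHDC1 at -1.01 and 1.06.

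The number of opposite genes also depends on the libraries. Without U343 miR-137 replicate 1 there were 291 and 386 opposite genes, which included 153 of the 170 and 210 of the 242, and without replicate 2 there were 363 and 453, which included 153 and 224. Leaving out a U343 control lowered them to 45 and 111 (replicate 1) and 52 and 83 (replicate 2). Scaling by library totals alone shifted the median interaction of all genes from -0.08 to -0.36 and gave 345 and 122, so the balance of the 2 directions rests on the scaling.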

How the data were processed

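Total RNA of U251 and U343 cells was sequenced by the study on a Genome Analyzer IIx for 36 cycles. The analysis used 2 libraries per group, and a further U251 replicate that the study mentions was not analysed here. RMAP was used by the authors to place reads on hg18, and reads were summed over 1 merged transcript per RefSeq gene, so the deposited unit is a raw count. How reads with several matching places or strands were counted is not given in the sources used here. The 20314 genes listed for both lines were used. Another 312 genes listed for U343 alone, and 1 repeated U251 line of SLC35E2, were left out.

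The 8 libraries were fitted together in edgeR 4.0.16 under R 4.3.3 (filterByExpr with a minimum count of 10, TMM factors, quasi-likelihood F test, Benjamini-Hochberg adjustment over 15550 genes, threshold 0.05), with 1 mean per group and contrasts for each line and their difference. CPM used TMM-scaled totals. Errors after ± are standard errors of log2 fold changes, with 2 libraries a group and 1 estimate of spread per gene shared by all 8 libraries. Unlike U343 miR-137 replicates thus also widen the errors and raise the p-values given for U251. Replicate ratios are differences of log2 CPM with a prior count of 1. All reported precision covers counting and library spread only. The procedure was tested on simulated data.

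Named genes were, per opposite direction, the 8 with the largest smaller effect among those with a mean of at least 50 reads in the higher group of each line and 1 direction in all 4 pairs, the 4 with the largest interaction per 1-line class, up to 3 per list with the smallest interaction p, and 7 targets named by the study, of which those with clear roles are given. A few of these genes are not reported here. ISG15, IFIT1, IFNB1, INCENP, SLC7A11, CD44, MSI1 and KRT5 were chosen after their values were seen. The members, lists and comparisons were chosen with earlier results of these data known. Alternatives were DESeq2 1.42.0, limma 3.58.1 (voom with sample weights), other scalings, filters and depths, the study's Fisher rule, a replicate block and each library left out. The list counts under these settings, and RIPSeq without a U251 control, were added after seeing the data.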

Additional observations from a re-analysis of the deposited data

Results flagged for a closer look

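The results below are marked because the effect of miR-137 differed between U251 and U343 by edgeR's test of the interaction. They are 1945 genes with a higher and 1977 with a lower effect in U343. Groups of 2 libraries are too small for a test of single outlying libraries.

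Values are U343 minus U251 differences in log2 fold change. Among opposite genes they were ITGB8 -3.00, DNAH11 -3.93, EVI2A -2.62, ADAMTS15 -3.14, AURKAPS1 -2.62, TBX2 -2.95, STARD8 -2.73, EPOR -3.17, DDIT4 -2.18, ITGA5 -2.47, NDUFA6 -1.79 and INCENP -1.57. In the other direction they were PEG10 4.59, CPA4 3.85, PRSS35 4.02, MID1 3.08, PHLDB2 2.85, PLXDC2 2.71, FHDC1 3.65, NES 2.82, CD44 1.39, VLDLR 2.02, SLC7A11 2.25, TNFAIP2 2.07, TGFB3 2.53 and MSI1 1.50. EDN2 had 7.55, a fitted value that rests on a group with 5 reads in all.

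Genes raised in U251 only had MX1 -6.93, BST2 -2.57, TAPBPL -3.51, PSME1 -2.29, NFKB2 -1.61, SESN2 -1.62, SNRPC -1.89, HNRNPR -1.16, COL7A1 -2.09 and COL6A3 -1.98. GBP4 (-6.46), LY6E (-8.07) and XAF1 (-7.78) had at most 5 reads in a U251 control, so that these fitted values are no measure of size. Genes lowered in U251 only had STXBP6 4.03, CADM1 3.14, NTRK3 3.13, WNT5A 3.12, INSIG1 1.79, SCD 2.12, RPS6 1.41, ITGB4 2.18 and FABP7 3.00. NEFL (3.79) and KIT (5.37) had few U343 reads.

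Genes raised in U343 only had HMOX1 4.35, KRT75 3.53, FAM196B 3.47, IL6 3.19, GAP43 3.12 and L1CAM 3.94. Genes lowered in U343 only had ST3GAL6 -2.63, CCDC150 -2.41, ESPL1 -2.24, C15orf42 -2.22, KIF2C -1.70, KIF11 -1.67, POLD1 -1.20, POLD3 -1.13 and ID3 -1.70. Genes that moved the same way by unequal amounts had AURKA -1.78, RFC4 -1.17, MITF -2.24, RPL15 1.15, GFAP 2.76, IL11 2.37, CDK6 0.75, MIB1 1.15, CDC42 0.95 and TGFB2 1.03.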

How the results depend on the processing

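Counts below are in the order of genes with a higher and a lower U343 effect (1945 and 1977 as reported), opposite genes up and down in U251 (170, 242), raised and lowered in U251 only (1057, 1122) and raised and lowered in U343 only (356, 459). They stayed within 1.5 times under DESeq2, voom, upper-quartile factors, each filter and U343 reads thinned to U251 depth. Library totals alone gave 1126, 3412, 345, 122, 2029 and 581 for the first 6. The study's Fisher rule, which needs 2-fold in all 4 pairs and tests no difference between lines, gave 5 and 8 opposite genes, 329 lowered in U251 only and 226 raised in U343 only. Leaving out a library, with the lone sample assumed to vary like the other groups, gave ranges of 972 to 2591, 821 to 3085, 45 to 363, 83 to 453, 418 to 1666, 605 to 1354, 137 to 484 and 204 to 584. The upper ends came without U343 miR-137 replicate 2, the lower ends without a U343 control or U251 control replicate 2. The labels do not say that replicate numbers mark a shared batch, and same-numbered libraries correlated at -0.0003 in U251 and 0.12 in U343. With a replicate block the counts were 1909, 1842, 177, 257, 966, 1099, 349 and 443.

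Of 112 named genes, 100 kept direction and side of the threshold under each of the 17 settings in which they were tested. A few settings left out a gene by their filter, for 1898 gene and setting pairs in all. The named genes were chosen from the same data. CDK6, IL6, XAF1 and BST2 fell short of it in some, and HIST1H4I, with few U343 reads, reversed from 1.76 to -0.20 with thinned reads, and the cause was not tested. The thinned reads gave 1873, 1823, 151, 231, 990, 1105, 344 and 409. With 2 libraries a group, the precision of every count is limited.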
